A study of Zeugodacus cucurbitae with 52 samples.

Results

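The actin genes of the melon fly *Zeugodacus cucurbitae* were followed through 13 life stages. Members were chosen by product name alone: the name had to begin with actin, followed by a comma or by a hyphen and a digit. This rule took 5 of the 18241 genes in the table, and all 5 passed the filter on low values. Of these, 4 are named as muscle actins: actin-2, muscle-specific (gene1908, LOC105221226), actin-3, muscle-specific (gene5689, LOC105211928), actin-5, muscle-specific (gene6460, LOC105212753) and actin, indirect flight muscle (gene2198, LOC105221551). The remaining one is actin, cytoplasmic A3a (gene4397, LOC105210586), the only member without muscle in its name.

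The stages were eggs, larvae of 1, 3 and 7 d, pupae of 1, 5 and 9 d, and virgin females and males of 1, 5 and 9 d. Each stage had 4 RNA-seq libraries, 52 in all, each made from a separate pool of whole animals and labelled as a biological replicate. All animals came from 1 reared population, and no genotype or treatment differed between groups. Labels were checked with stage genes whose values were known from earlier results of these data, so the check is not an independent one. Larval serum protein 2, a storage protein of late larvae, reached 11821 TPM in day-7 larvae, after at most 6.27 TPM at earlier stages, though it was also high later, with 6776 TPM in day-5 pupae and 4723 TPM in day-9 females. Opsin Rh1, a light receptor of the adult eye, stood at 1.14 TPM in day-5 pupae and at 1196 TPM in day-9 ones. Vitellogenin-1-like, a yolk protein precursor, was at 14222 TPM in day-5 females and 2.21 TPM in day-5 males, and protamine-like, of sperm chromatin, at 811 TPM in day-5 males and 0 TPM in day-5 females.

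Actin polymerizes into filaments. Cytoplasmic actins build the cell cortex and drive cell shape, division and movement, while muscle actins form the thin filaments on which myosin pulls. Insects carry several actin genes that encode nearly the same protein but differ in where and when they are used. In *Drosophila melanogaster*, most larval muscles are broken down during metamorphosis while the adult muscles, among them the large indirect flight muscles of the thorax, are built in the pupa.

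Levels are given as TPM, the share of a gene in the transcripts of a library, corrected for gene length and scaled to the same total in every library. Comparisons used limma on log2(TPM + 1) over all 52 libraries, and p-values were adjusted over the 17097 genes tested. A gene was called differentially expressed at an adjusted p below 0.05 with a log2 fold change beyond 2 in either direction, and only such genes are said to have risen or fallen. The log2(TPM + 1) scale understates the change of genes near 0 TPM. Whole bodies were sequenced, so fewer cells of a type and less RNA per cell cannot be told apart. TPM carry no depth, so no counting interval is given, and values of a few hundredths of a TPM lie near the last digit of the table.

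Near-identical copies can share reads, and how such reads were divided among the actin genes was not examined. In day-3 larvae gene2198 stood at 0.000245% to 0.00116% of the TPM of gene1908, and gene6460 at 0.000735% to 0.00150%. Gene5689 stood at 6.03% to 15.7% of it. In day-1 pupae, where gene4397 was the most abundant, gene1908 stood at 8.67% to 11.9% of its TPM and gene5689 at 1.98% to 2.50%. The 5 genes were not tandem copies. Of all pairs only 2 lay on 1 sequence of the RefSeq assembly idZeuCucr1.2, with at least 991 genes between them.

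The actin in use changed with the life stage. Actin-2 supplied most actin transcripts of eggs and larvae, the cytoplasmic actin most of those in day-1 pupae, and no single gene a majority at any later stage. By the methods, the eggs were taken within hours of laying. Their libraries held the other muscle genes at 39552 ± 999.7 TPM, summed over a list of 41, against 30760 ± 1133 TPM in day-1 larvae, so this sum was no lower in eggs than in day-1 larvae. The cause was not tested, and none of the genes used to check the labels marks eggs. Of the summed actin TPM, gene1908 made up 84.2% ± 0.59 in eggs and 88.0% ± 1.53 in day-1 larvae (mean ± SD, n = 4 here and below). It still held 79.0% ± 0.36 in day-7 larvae. In day-1 pupae gene4397 took over with 87.1% ± 1.52, and gene1908 held 9.24% ± 1.20. In day-5 pupae the flight muscle actin gene2198 was the largest with 46.7% ± 0.43. In day-9 pupae 4 genes shared the total, with 28.9% ± 3.40 for gene2198, 23.6% ± 1.47 for gene5689, 22.9% ± 0.79 for gene1908 and 21.3% ± 1.70 for gene6460.

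**Figure D1:**
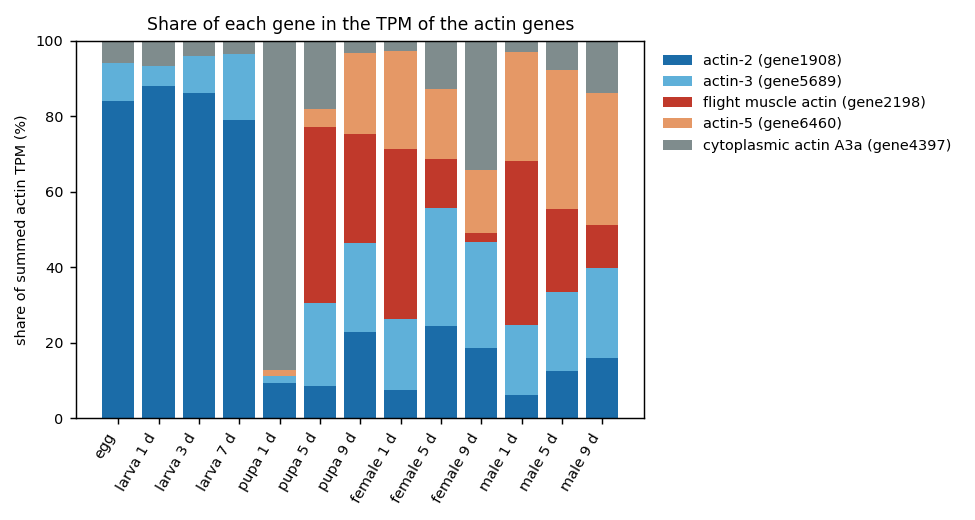
Share of each actin gene in the summed actin TPM (y axis, percent) at each of the 13 stages (x axis), as the mean of 4 libraries. Actin-2 fills 79.0% or more of the bars of eggs and larvae, the cytoplasmic actin 87.1% of that of day-1 pupae, and the flight muscle actin 45.0% and 43.6% of those of day-1 females and males.

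Summed actin was lowest in day-9 females and in day-1 pupae and highest in day-9 pupae. It was 4147 ± 188 TPM in day-1 pupae and 34688 ± 1782 TPM, or 3.47% of all transcripts, in day-9 pupae. In day-9 females it was 2939 ± 299 TPM, and in day-9 males 5316 ± 840 TPM. The day-9 females, at 2539 to 3196 TPM, lay below all others of these stages, and the day-9 pupae, at 32757 to 36783 TPM, above them. The day-9 males, at 4323 to 6351 TPM, overlapped with the day-1 pupae, at 3994 to 4412 TPM.

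Actin-2 (gene1908) was the most abundant actin gene of eggs and larvae and was high again at the end of the pupal stage. The 4 egg libraries held 11962, 12419, 13076 and 11881 TPM. The 4 libraries of day-3 larvae held 12864, 17204, 12024 and 16320 TPM, and those of day-7 larvae 12640, 12711, 13547 and 12756 TPM. Eggs and larvae of 3 and 7 d overlapped, and gene1908 was the second most abundant gene of the day-3 larva by mean TPM (rank 2 of all genes, and rank 3 in the day-1 larva).

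One day into the pupal stage its 4 libraries held 427, 403, 391 and 311 TPM, far below every larval library. The log2 fold change from day-7 larvae was -5.08 (SE 0.11, adjusted p = 4.56e-35), against a median of 0.67 over all genes tested. Levels stayed low in day-5 pupae, at 552, 660, 510 and 575 TPM. They then reached 8748, 7419, 8024 and 7630 TPM in day-9 pupae, a rise of 3.79 on the log2 scale (SE 0.11, adjusted p = 2.79e-30). No day-9 pupal library reached the lowest larval one.

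This second peak was short. In day-1 females gene1908 held 1627, 1584, 1463 and 1713 TPM and in day-1 males 1217, 1213, 1185 and 1242 TPM, all below the pupae. It fell by 2.32 on the log2 scale to females (SE 0.11, adjusted p = 3.54e-22) and by 2.71 to males (SE 0.11, adjusted p = 1.13e-24). Pupae of 1 d had the lowest mean of the 13 stages, 38.1-fold below that of day-3 larvae.

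Actin-3 (gene5689) was present in both larval and adult stages. Its share of the summed actin was 5.39% ± 0.62 in day-1 larvae and 31.1% ± 1.82 in day-5 females, where it was the most abundant of the 5 genes. The 4 libraries of day-1 larvae held 692, 737, 601 and 621 TPM and those of day-7 larvae 2771, 2791, 3074 and 2690 TPM. Larvae of 3 d held 2016, 1895, 724 and 2104 TPM, and replicate 3, with 724 TPM, lay with the day-1 larvae. That library was also among 6 that the study's table lists with a low share of mapped reads, and its summed TPM of 41 other muscle genes was 23592, against 40228 to 48411 in the other 3. The part of the library in this value was not tested.

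Like actin-2, actin-3 collapsed at pupation, to 80.2, 85.4, 81.7 and 70.8 TPM in day-1 pupae. It fell by 5.14 on the log2 scale (SE 0.17, adjusted p = 8.18e-28). Unlike actin-2 it was back by day 5, at 1367, 1553, 1348 and 1513 TPM, a rise of 4.17 (SE 0.17, adjusted p = 1.68e-24). It reached 9333, 7539, 7960 and 7932 TPM in day-9 pupae, a further rise of 2.50 (SE 0.17, adjusted p = 1.14e-16). Larvae and adults as wholes differed by only -0.38 on the log2 scale (SE 0.08, adjusted p = 7.8e-05), short of the fold limit, and by 0.49 in the other direction when libraries were scaled by median-of-ratios size factors.

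The flight muscle actin (gene2198) was almost missing before metamorphosis. The 4 libraries of day-1 larvae held 0.21, 0.13, 0.15 and 0.13 TPM, and those of day-3 larvae 0.14, 0.07, 0.14 and 0.04 TPM. In day-1 pupae it stood at 2.76, 3.26, 2.56 and 4.34 TPM. All of these lay more than 10-fold below the lowest adult library, at 50.9 TPM.

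Between pupal days 1 and 5 gene2198 switched on. Pupae of 5 d held 2912, 3323, 2916 and 3197 TPM, a rise of 9.53 on the log2 scale (SE 0.32, adjusted p = 3.37e-27). In day-9 pupae the 4 libraries held 9571, 10671, 11373 and 8486 TPM, above every day-5 library. The log2 fold change of 1.69 (SE 0.32, adjusted p = 2.32e-05) was within the fold limit. Levels then held on to emergence, with 10074, 9609, 9031 and 9866 TPM in day-1 females and 8352, 8198, 8456 and 8918 TPM in day-1 males. Neither sex differed from day-9 pupae by a called change (log2 fold change -0.05 and adjusted p = 0.96 in females, -0.23 and adjusted p = 0.62 in males). These p-values rest on the SE of 0.32, which is pooled over all stages.

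After emergence gene2198 fell in both sexes. Females of 5 d held 545, 566, 1210 and 930 TPM, and females of 9 d held 73.2, 82.4, 70.2 and 50.9 TPM. Males of 5 d held 1373, 1293, 1326 and 2172 TPM, and males of 9 d held 422, 986, 342 and 786 TPM. No library of a later age reached one of an earlier age within a sex. In females the log2 fold changes were -3.65 to day 5 (SE 0.32, adjusted p = 3.23e-13) and -3.47 from day 5 to day 9 (SE 0.32, adjusted p = 5.82e-12).

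In males they were -2.49 (SE 0.32, adjusted p = 4.53e-08) and -1.38 (SE 0.32, adjusted p = 0.0054), the latter within the fold limit. The change from day 5 to day 9 differed between the sexes by -2.10 on the log2 scale (females minus males, SE 0.46, adjusted p = 4.17e-04). That difference lay close to the fold limit: it was -1.84 to -1.96 when female replicate 3 of day 5, female replicate 4 of day 9, or male replicate 2 or 4 of day 9 was left out, and -1.95 without the 6 libraries of low mapping. At day 9 females held less than males, with a log2 difference of -3.07 (SE 0.32, adjusted p = 2.67e-11) and no overlap between the libraries.

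Some eggs and day-7 larvae carried a trace of gene2198. Eggs held 2.93, 2.26, 4.76 and 12.1 TPM, and day-7 larvae 0.30, 0.15, 3.62 and 1.80 TPM. By clean bases over clean reads, day-7 replicates 3 and 4 had shorter trimmed reads than replicates 1 and 2. The eggs had the shorter reads too, while day-1 and day-3 larvae had the longer. For gene6460 the highest day-7 library was replicate 2, of the longer reads. Whether read length bears on the trace was not tested. For gene2198, egg replicate 4 and larval replicate 3 were the highest of their stage. Flightin (gene1048), a protein of flight muscle thick filaments in *Drosophila*, was also highest in these libraries of the 2 stages, at 5.73 TPM in the egg library and 2.26 TPM in the larval one. The call for a fall from eggs to day-1 larvae, -2.27 on the log2 scale (SE 0.32, adjusted p = 6.52e-08), was lost without egg replicate 4, at -1.86, and under median-of-ratios scaling, at -1.98.

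Actin-5 (gene6460) was likewise an actin of the late pupa and adult, but on another schedule. The 4 libraries of day-3 larvae held 0.10, 0.17, 0.18 and 0.12 TPM, and those of day-7 larvae 0.69, 5.19, 1.65 and 1.82 TPM. It was on by pupal day 1, at 66.8, 84.5, 58.9 and 65.1 TPM, when gene2198 was still below 5 TPM. That first rise was 4.54 on the log2 scale (SE 0.26, adjusted p = 1.02e-19).

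Pupae of 5 d held 235, 348, 270 and 386 TPM of gene6460, a rise of 2.14 (SE 0.26, adjusted p = 1.28e-09). The larger step came later: day-9 pupae held 7918, 6932, 6921 and 7700 TPM, a rise of 4.59 (SE 0.26, adjusted p = 2.61e-19). Day-1 females held 5679, 5389, 5594 and 5564 TPM and day-1 males 5849, 5626, 5272 and 5688 TPM, all below every day-9 pupal library. Neither sex differed from day-9 pupae by a called change (-0.40 with adjusted p = 0.20 in females, -0.39 with adjusted p = 0.24 in males), and the sexes overlapped. The SE of 0.26 behind these p-values is pooled over all stages.

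After emergence gene6460 fell in females to day 5, while its changes in males stayed within the fold limit (-1.14 to day 5, SE 0.26, adjusted p = 5.98e-04, and -0.47 from day 5 to 9, SE 0.26, adjusted p = 0.29). Females of 5 d held 978, 1025, 1365 and 1178 TPM, a fall of 2.30 on the log2 scale (SE 0.26, adjusted p = 2.03e-10). Females of 9 d held 464, 542, 585 and 391 TPM, and this further change of -1.20 (SE 0.26, adjusted p = 1.34e-04) was within the fold limit. Tested directly, the change in females minus that in males was -1.16 to day 5 (SE 0.36, adjusted p = 0.008). From day 5 to 9 it was -0.73 (SE 0.36, adjusted p = 0.14), and neither was called. Males of 5 d held 2227, 2103, 3088 and 2898 TPM and males of 9 d held 1785, 2243, 1469 and 1945 TPM. Every male library of 5 and 9 d lay above every female library of the same age. The sex difference was -1.17 (SE 0.26, adjusted p = 1.22e-04) at day 5 and -1.91 (SE 0.26, adjusted p = 1.29e-08) at day 9, both short of the fold limit, and that of day 9 passed it at -2.67 under median-of-ratios scaling and at -2.02 without male replicate 3 of day 9.

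**Figure D2:**
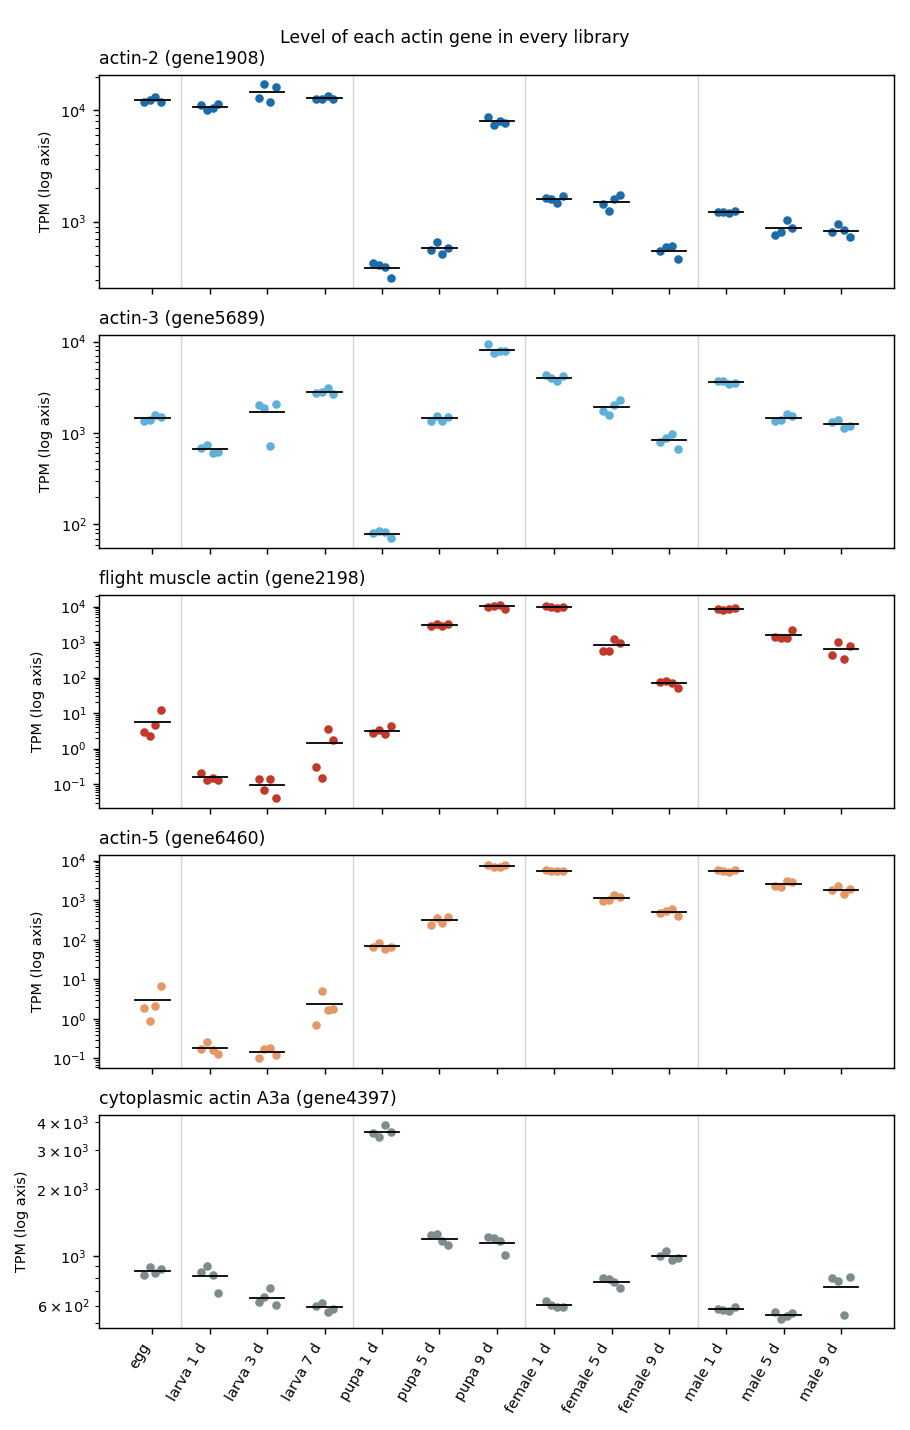
TPM of each of the 5 actin genes (one panel each, log y axis) in all 52 libraries at the 13 stages (x axis). Points are libraries and lines are stage means. Actin-2 sits between 10136 and 17204 TPM in eggs and larvae and drops to 383 TPM on average in day-1 pupae, while the flight muscle actin climbs from 3.23 TPM in day-1 pupae to 3087 TPM in day-5 pupae.

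The ratio of the flight muscle actin to actin-5 within each library showed the offset between these adult actins. Because it is a ratio within a library, it does not depend on scaling between libraries. It was 0.0475 ± 0.0129 in day-1 pupae and 10.3 ± 1.75 in day-5 pupae. It came back to 1.37 ± 0.26 in day-9 pupae and 1.74 ± 0.081 in day-1 females, against 1.51 ± 0.085 in day-1 males. In older adults it was lower still, at 0.140 ± 0.0179 in day-9 females and 0.328 ± 0.109 in day-9 males (no test was run on it). The ranges of these last groups, 0.120 to 0.158 and 0.233 to 0.440, did not overlap.

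**Figure D3:**
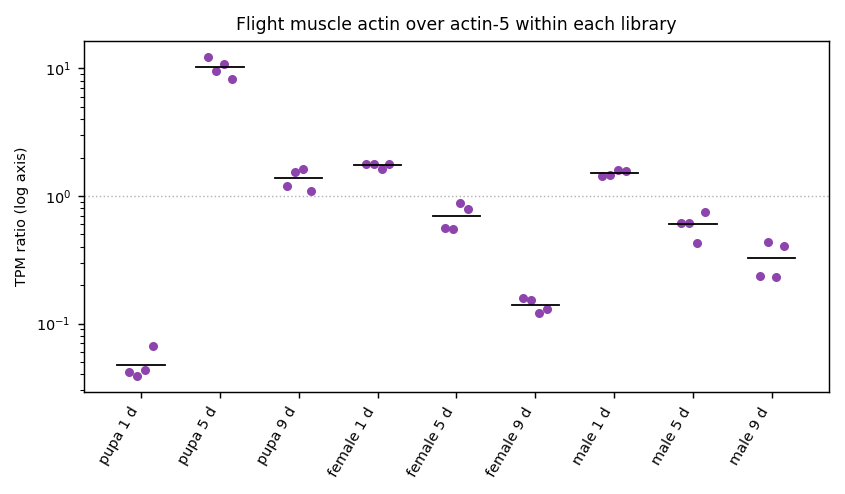
Ratio of flight muscle actin (gene2198) to actin-5 (gene6460) within each library (log y axis) from day-1 pupae to day-9 adults (x axis). Points are libraries and lines are stage means. The ratio peaks at 8.28 to 12.4 in day-5 pupae and is 0.120 to 0.158 in day-9 females.

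The cytoplasmic actin (gene4397) varied least, by 6.63-fold between its highest and lowest stage mean. Its high point was the day-1 pupa, with 3572, 3418, 3878 and 3584 TPM, against 599, 619, 564 and 581 TPM in day-7 larvae. All 4 pupal libraries lay above every other library of the table. The log2 fold change was 2.61 (SE 0.08, adjusted p = 4.72e-29), but the median of all genes moved by 0.67 in the same direction, and under median-of-ratios scaling the change was 1.18 and no longer called.

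By day 5 the cytoplasmic actin was at 1247, 1256, 1165 and 1120 TPM, still above every egg and larval library. The difference of -1.59 from day-1 pupae (SE 0.08, adjusted p = 2.22e-21) was within the fold limit. Its 4 libraries in day-9 females held 997, 1049, 965 and 976 TPM, and in day-9 males 795, 775, 543 and 808 TPM. The female libraries were all higher, by 0.47 on the log2 scale (SE 0.08, adjusted p = 1.53e-06), within the fold limit and turned to -0.30 by median-of-ratios scaling. Larvae and adults as wholes differed by -0.02 (SE 0.04, adjusted p = 0.67), or by 0.85 under that scaling. In day-9 females, where the muscle actins were low, gene4397 made up 34.2% ± 3.41 of the summed actin, against 13.8% ± 1.63 in day-9 males.

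Ordering the 13 stage means of each gene showed where neighbouring stages could be told apart. For gene1908 the ranges of day-3 larvae, day-7 larvae and eggs overlapped, followed without overlap by day-1 larvae and day-9 pupae. For gene2198, day-9 pupae and day-1 females overlapped at the top, day-1 males overlapped with the pupae but not with the females, and day-5 pupae and day-5 males followed, each apart from the next. For gene6460, day-9 pupae stood alone, followed by the overlapping day-1 males and females. For gene5689, day-9 pupae again stood alone, and for gene4397 the day-1 pupae did. Of the 12 neighbouring pairs, 5 overlapped for gene1908, 6 for gene2198, 9 for gene4397, 7 for gene5689 and 4 for gene6460.

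Counted by comparison, the actin calls were most numerous in metamorphosis. From day-7 larvae to day-1 pupae 4 of the 5 genes were called, 2 higher and 2 lower, where 17.2% of all genes tested were called. Under median-of-ratios scaling 1 was higher and 2 were lower. From day-1 to day-5 pupae 3 of 5 rose (12.2% of all genes called in either direction), and from day-5 to day-9 pupae 3 of 5 rose (7.07%). The muscle actins did not move together at pupation: gene1908 and gene5689 fell while gene6460 rose, and gene2198 changed by 0.99 (SE 0.32, adjusted p = 0.0063), within the fold limit. Of the day-9 pupal libraries, 3 were among those of low mapping, and with the 6 such libraries left out the calls of all 5 genes at these pupal steps were the same. That left 1 pupal library at day 9, assumed to vary like the other stages.

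Outside metamorphosis few actin genes were called. From eggs to day-1 larvae 1 of 5 was called (7.09% of all genes), which was gene2198 above, and none from day-1 to day-3 larvae (3.23%) or from day-3 to day-7 larvae (3.23%). At an adjusted p below 0.05 with no fold limit, 3 of 5 passed in each of these steps. Emergence called 1 of 5, the fall of gene1908, in females (8.79%) and in males (5.08%).

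With adult age, 2 of 5 were called in females from day 1 to 5 (7.81%) and 1 of 5 from day 5 to 9 (0.766%). In males 1 of 5 was called from day 1 to 5 (2.58%) and none from day 5 to 9 (0.322%), where 2 of 5 passed without the fold limit. Every call with adult age was a fall, of gene2198 or gene6460. Clean bases over clean reads in the study's table gave the mean read length after trimming. It differed between day 1 and day 5 of each sex and between eggs and day-1 larvae. At those steps stage and trimmed read length cannot be told apart. Day-7 larvae held libraries of both lengths, between day-3 larvae of the longer and day-1 pupae of the shorter. With only day-7 libraries of the neighbouring stage's length kept, all 10 gene results at these steps had the same direction and call.

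Between the sexes, none of 5 was called at day 1 (4.64%) or at day 5 (10.7%), and 1 of 5 was called at day 9 (16.9%), the lower gene2198 of females. Without the fold limit 1 of 5 passed at day 1, 4 of 5 at day 5 and 5 of 5 at day 9. Tested directly, the change with age differed between the sexes for none of 5 from day 1 to 5 (7.16%), where 4 of 5 passed without the fold limit, and for 1 of 5 from day 5 to 9 (0.597%). All larvae against all adults called 3 of 5 (14.2%). Gene1908 was higher in larvae by 3.63 (SE 0.05, adjusted p = 5.12e-42), and gene2198 and gene6460 were lower, with log2 fold changes of -9.82 (SE 0.16, adjusted p = 9.65e-40) and -10.35 (SE 0.13, adjusted p = 2.16e-44).

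**Figure D4:**
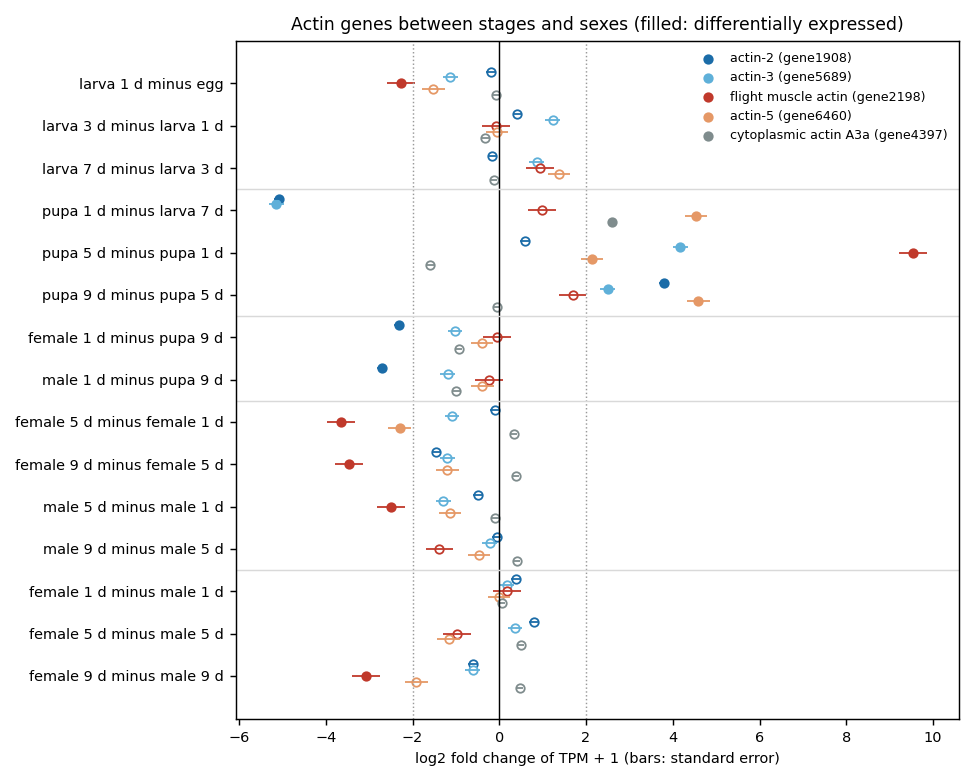
Log2 fold change of the 5 actin genes (x axis, on log2(TPM + 1)) in the comparisons of stages (rows), with bars of 1 SE and dotted lines at the fold limit of 2 in each direction. Filled symbols are called and open ones are not. At pupation actin-2 and actin-3 lie at -5.08 and -5.14 and actin-5 at 4.54.

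The other muscle genes placed the actins in context. A list of 41 contractile proteins was taken by product name, and its summed TPM was 43719 ± 2430 in day-7 larvae, 4940 ± 326 in day-1 pupae, 14877 ± 568 in day-5 pupae and 88092 ± 2712 in day-9 pupae. At pupation 19 of 41 fell and 4 rose, where 17.2% of all genes were called, with a list median of -1.39 beside 0.67 over all genes. Myosin heavy chain (gene11765), the motor of the thick filament, fell by 5.68 on the log2 scale, myosin light chain alkali (gene3122) by 6.28 and troponin T (gene12425), which anchors the troponin complex to tropomyosin, by 5.33. Troponin I (gene9599), the inhibitory subunit, fell by 5.25, and the fold changes were -4.73 and -3.57 for the tropomyosin-2 genes gene6827 and gene6828 and -3.09 for the muscle LIM protein Mlp84B (gene7100).

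From pupal day 1 to 5, 20 of 41 rose and 2 fell (12.2% of all genes called, list median 1.91 beside -0.09 over all genes), and from day 5 to 9 again 20 rose and 4 fell (7.07% called, median 1.96 beside -0.01). Myosin regulatory light chain 2 (gene3368) rose by 3.38 and then by 2.53. In adults the sum was 55180 ± 860 TPM in day-1 females and 10268 ± 844 TPM in day-9 females, and 49911 ± 566 TPM and 21263 ± 1922 TPM in males of the same ages. From day 1 to 5, 5 of 41 fell and 1 rose in females, where 7.81% of all genes were called (15 fell and none rose under median-of-ratios scaling). In males none was called, where 2.58% of all genes were (1 fell under that scaling). At day 9, 1 of 41 was higher and 1 lower in females than in males, where 16.9% of all genes were called, and 13 were lower and 1 higher under that scaling. Between larvae and adults 5 were higher in larvae and 8 lower, where 14.2% of all genes were called (7 and 5 under that scaling), with flightin (gene1048) at -9.11 and myosin heavy chain (gene11765) at 0.22, the latter not called.

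Of 46 genes that act on actin filaments, 12 rose and 1 fell at pupation, where 17.2% of all genes were called, with a list median of 1.63 beside 0.67 over all genes. Under median-of-ratios scaling 4 rose and 3 fell, and the median over all genes was 0.03. The values of single genes that follow are without that scaling. Profilin (gene12081), which delivers actin monomers to growing filaments, rose by 2.36 on the log2 scale, gelsolin-like (gene5102), of a family that severs and caps filaments, by 3.63, and tropomodulin (gene1196), which caps the slow-growing end of thin filaments, by 4.67. Of these, gelsolin-like fell again by 3.08 from pupal day 1 to 5. Cofilin (gene7118), a filament-severing protein, changed by only 0.79 at pupation and was not called. Filamin-A (gene8106), a filament cross-linker, was low in day-1 pupae, at 86.2 TPM, and lowest in day-5 pupae, at 66.5 TPM. From pupal day 5 to 9 it rose by 2.65, to 422 TPM.

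Of 17 muscle regulators, 2 rose at pupation and none fell, where 17.2% of all genes were called, with a median of 1.16 beside 0.67 over all genes, and none was called under median-of-ratios scaling. One of the 2 was myocyte-specific enhancer factor 2 (gene8050), a regulator of muscle differentiation, at 2.23. This gene and spalt-major (gene9683), which specifies fibrillar flight muscle in *Drosophila*, were named after their values were seen, and spalt-major changed by 1.16 at pupation and by 0.72 from pupal day 1 to 5, neither called. The most abundant regulators, the transcription factor extradenticle (gene6436), the RNA-binding protein held out wings (gene1326) and a homolog of the transcription factor serum response factor (gene4175), were not called at pupation, at 1.98, 1.17 and 0.77. At day 9, 2 of the 17 were higher in females than in males and none lower, where 16.9% of all genes were called (2 higher and 1 lower under that scaling), with the serum response factor homolog at 3.35.

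The genes whose stage means were most like those of each actin were ranked by Pearson's r of log2(TPM + 1) over the 13 stages, among 8037 named genes. The 13 points share libraries and animals between genes, so r is a description only. The flight muscle actin was closest to flightin (gene1048, r = 0.991). Next came fibrous sheath CABYR-binding protein (gene6640, r = 0.986) and transmembrane protein 216 (gene7738, r = 0.984), neither in the muscle list. Actin-2 was closest to a KQT potassium channel (gene4995, r = 0.958) and troponin C, isoform 2 (gene9501, r = 0.957), a calcium sensor of the thin filament. After them came cuticular protein 47Eg-like (gene9500, r = 0.931). Actin-3 was closest to myosin light chain alkali (gene3122) and myosin heavy chain (gene11765), with r = 0.934 for each. A trimeric intracellular cation channel (gene9857, r = 0.924), outside the muscle list, followed.

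The nearest 3 genes to actin-5 by Pearson's r were pyridoxal phosphate phosphatase (gene7422, r = 0.987), fibrinogen-like protein A (gene8594, r = 0.982) and a dehydrogenase/reductase (gene8978, r = 0.974). None of these is in the muscle list, but by Spearman's rho the nearest 3 included a smooth muscle myosin light chain kinase of that list (gene10243, rho = 0.978) and a myosin regulatory light chain (gene1281, rho = 0.979). The cytoplasmic actin was closest to the purine synthesis enzyme PURH (gene1448, r = 0.968). A putative N-acetylglucosamine-6-phosphate deacetylase (gene5510, r = 0.956) and another dehydrogenase/reductase (gene9666, r = 0.948) followed. Among the actins themselves, gene2198 and gene6460 were the most alike (r = 0.939), and gene4397 and gene5689 the least (r = -0.704).

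**Figure D5:**
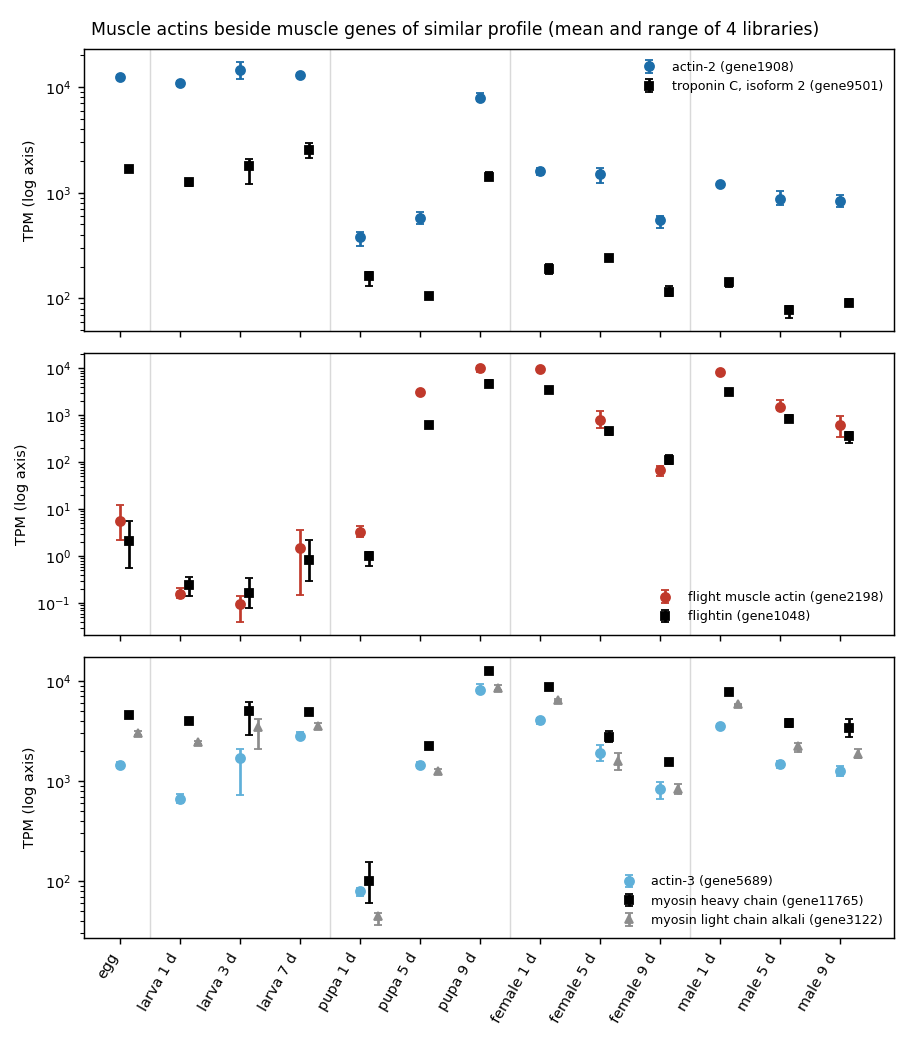
Stage means of actin-2, flight muscle actin and actin-3 beside muscle genes among their nearest profiles (TPM, log y axis), at the 13 stages (x axis), with bars from the lowest to the highest of 4 libraries. Flightin follows the flight muscle actin with r = 0.991, and myosin heavy chain follows actin-3 with r = 0.934.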

How the data were processed

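Whole-body RNA of 13 stages, with 4 libraries each, was quantified by the authors and deposited as 1 table of TPM (length-corrected transcript levels) with gene names. Reads were trimmed with SeqPrep and Sickle, mapped with HISAT2 2.1.0, assembled with StringTie and quantified with RSEM 1.3.1, as named in the study's methods and processing notes. No counts were used here, so library depth is unknown, and TPM add up to a fixed total, so a gene can shift because others do. The derivation of the table's gene length column was not stated and it entered no test.

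Genes above 0.1 TPM in at least 4 libraries were kept (17097 of 18241), and log2(TPM + 1) was fitted in limma 3.58.1 (R 4.3.3) with 1 mean per stage, intensity trend and robust variances. There were 15 comparisons of stages, all larvae against all adults, and 2 tests of sex by age. P-values were adjusted by Benjamini-Hochberg over all genes tested within each comparison, and the limits were an adjusted p of 0.05 and an absolute log2 fold change of 2. On simulated data for day-7 minus day-3 larvae (17097 genes), 99 of 100 genes with a log2 change of 3 were called, 3 of 100 with 1.5, and 4 of 16897 unchanged genes. The changed genes were drawn from those with a day-3 mean log2(TPM + 1) above 4. Gene2198 and gene6460 lay below that in these larvae, so the simulation does not cover them.

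The genes named were all 5 actin genes, the 3 most similar profiles of each among genes with a stage mean of at least 10 TPM, and the most abundant genes of 3 lists taken by product name (8, 5 and 3). Flightin is named by similarity, and myocyte-specific enhancer factor 2 and spalt-major after their values were seen. Products caught by spelling alone (2 of them) were dropped from the regulator list. The members, the lists and the genes of the label check were chosen with earlier results of these data known. Replicates are separate pools, and p-values measure the spread between them, estimated per gene over all stages together. This need not match the spread within the stages compared.

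Alternatives were a pseudocount of 0.1 TPM, all genes kept, median-of-ratios size factors applied to the TPM, a replicate block, the compared stages alone, libraries of 1 class of mean trimmed read length in day-7 larvae (from clean bases and reads in the study's table), leaving out 6 libraries of low mapping, leaving out each library in turn, and Spearman's rank correlation for similarity. Tables and figures were made with Python 3.11.15, numpy 2.4.6, pandas 2.3.3 and matplotlib 3.10.9.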

Additional observations from a re-analysis of the deposited data

Results flagged for a closer look

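In 4 of 65 groups of 4 libraries, 1 library stood far from the other 3, measured as its gap relative to the range of the group. Chance alone flags about 1 in 20 groups. For gene5689 in day-3 larvae, replicate 3 was lowest at 724.44 TPM, against 1895 to 2104 TPM in the others. For gene4397 in day-9 males, replicate 3 was lowest at 542.96 TPM, against 775 to 808 TPM. For gene2198 in day-5 males, replicate 4 was highest at 2171.79 TPM, against 1293 to 1373 TPM. For gene1908 in day-7 larvae, replicate 3 was highest at 13547.4 TPM, against 12640 to 12756 TPM.

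The change of gene2198 from day 5 to day 9 differed between females and males by -2.1 on the log2 scale (SE 0.46, adjusted p = 4.17e-04 in limma). It was -3.47 in females and -1.38 in males, the latter not called. The call for the difference was lost without the libraries of low mapping, at -1.95, and without some single libraries, at -1.84 to -1.96.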

How the results depend on the processing

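Of 90 gene results, 22 were called, and 19 of these kept the call under every alternative. Another 4 became called under 1 or more. All 90 kept direction and call with no filter, with the compared stages alone and with the replicate number as a block, which changed no call. Same-numbered libraries did not deviate together (r of -0.298 to 0.215 over 60 pairs, median -0.002). Where a value changed, the cause was not tested. A pseudocount of 0.1 TPM called 2 genes in place of 1 from eggs to day-1 larvae and 2 in place of 0 from day-3 to day-7 larvae. Median-of-ratios scaling called 0 from eggs to day-1 larvae and 2 between the sexes at day 9. At pupation it called 1 higher and 2 lower, as gene4397 was no longer called. Without the 6 libraries of low mapping, 0 in place of 1 differed between the sexes in the change from day 5 to 9. Leaving out 1 library gave 0 to 1 called from eggs to day-1 larvae (0 without egg replicate 4), 1 to 2 between the sexes at day 9 (2 without male replicate 3) and 0 to 1 for the sex difference in the change from day 5 to 9. Of the 3 nearest profiles, Spearman's correlation shared 0 for gene4397, 1 for gene5689 and 1 for gene6460.

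No called result turned direction. Scaling turned gene1908 (0.50) and gene4397 (0.60) from eggs to day-1 larvae, gene4397 (0.13) and gene6460 (0.03) from day-1 to day-3 larvae, gene4397 (0.03) from day-5 to day-9 pupae and gene2198 (0.16) from day-9 pupae to females. It also turned gene4397 in females from day 1 to 5 (-0.35) and from day 5 to 9 (-0.12), and between the sexes gene6460 at day 1 (0.08), gene5689 at day 5 (-0.04) and gene4397 at day 9 (-0.30). Between larvae and adults it turned gene4397 (0.85) and gene5689 (0.49), and for the sex difference in the change from day 1 to 5 gene1908 (-0.10), gene4397 (-0.07) and gene5689 (-0.30). Without the libraries of low mapping gene4397 turned from day-5 to day-9 pupae (0.04) and in the sex difference in the change from day 5 to 9 (0.03). Leaving out 1 library, gene4397 ranged from -0.09 to 0.00 from day-5 to day-9 pupae, from -0.04 to 0.01 between larvae and adults and from -0.16 to 0.03 in the sex difference in the change from day 5 to 9. Gene2198 ranged from -0.13 to 0.02 from pupae to females, gene1908 from -0.12 to 0.03 in males from day 5 to 9, and gene6460 from -0.04 to 0.01 between the sexes at day 1. TPM give no depth, so the precision of the low values of gene2198 and gene6460 in larvae is unknown.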
